A study of Mus musculus with 9 samples.

Results

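The sodium, chloride and bicarbonate transporters described here are 9 genes: Slc9a2, Slc9a3, Slc26a3, Slc26a4, Slc26a6, Slc4a1, Slc4a4, Slc12a2 and Cftr. They were taken as the non-control probes of the array that carry one of these gene names, which gave 17 probes of 41174, or 9 genes of 28478 gene names. The rule used names alone and no measured value. Epithelial cells sorted from C57BL/6 mice were measured on 9 single-colour Agilent arrays, 3 for each of 3 groups. The kidney group was sorted as Epcam+ CD45- Fluorogold- cells, with 4 mice pooled for each replicate. The MHCIIhi group came from small intestine and was sorted as Epcamhi MHChi CD45- Fluorogold- cells, and the MHCIIlo group, also from small intestine, as cells with intermediate Epcam and MHC class II in the same CD45- Fluorogold- gate, each with 3 mice pooled for each replicate. Epcam is a cell adhesion protein found on epithelia, CD45 is the common leukocyte surface protein, and Fluorogold was taken here as a stain for dead cells. A pool of sorted cells still mixes cell types of its tissue, and in such samples fewer cells of a type and less RNA per cell cannot be told apart.

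Epithelia move salt and water by pairing transporters on their luminal and basolateral faces. In the small intestine, a luminal sodium-proton exchanger working beside a luminal chloride-bicarbonate exchanger takes up sodium chloride, whereas fluid is secreted when chloride that enters across the basolateral face through a sodium-potassium-chloride cotransporter leaves through the CFTR channel. In the kidney collecting duct, intercalated cells balance acid and base with proton pumps and with chloride-bicarbonate exchangers placed on one face or the other.

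A level below is the log2 of a probe's processed signal over the 75th percentile of its array, so a level of 0 equals that percentile, and levels of different probes are not set against each other. A difference was called where limma, fitted across the 19993 genes that 1 group or more had well above background on each of its 3 arrays, gave a Benjamini-Hochberg adjusted p below 0.05 with a log2 difference of at least 1. All 9 genes passed that filter. The 75th percentile was 599 to 769 on kidney arrays, 213 to 371 on MHCIIhi arrays and 101 to 185 on MHCIIlo arrays, and 71.2% to 73.2%, 60.9% to 64.7% and 51.0% to 57.3% of spots were well above background there. No spot was saturated, and the precision is limited by the 3 arrays in a group. All kidney arrays lay on a slide of their own, so kidney and slide cannot be told apart. MHCIIhi 3 shared a slide with the 3 MHCIIlo arrays, while MHCIIhi 1 and 2 lay on another. On the second principal component, which held 14.6% of the variance, MHCIIhi 3 (-36.1) and MHCIIlo 1 (36.5) were the arrays nearest to the other intestinal group. The tissues matched their labels: 14 of 15 enterocyte markers were lower in kidney than in MHCIIhi cells and in MHCIIlo cells alike, and all 5 thick ascending limb and all 10 intercalated cell markers were higher.

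In kidney against MHCIIhi cells 3 of the 9 genes were higher (Slc26a4, Slc4a1 and Slc9a3), 5 were lower (Slc26a3, Slc26a6, Slc4a4, Slc12a2 and Cftr), and Slc9a2 was not called. In kidney against MHCIIlo cells Slc26a4 and Slc4a1 were higher, 6 genes were lower, and Slc12a2 was not called. In MHCIIhi against MHCIIlo cells Slc12a2 was higher, 6 genes were lower, and Slc26a4 and Cftr were not called. Of all genes tested, 48.4% were called in kidney against MHCIIhi cells (25.6% higher and 22.8% lower), 57.6% in kidney against MHCIIlo cells (29.8% higher and 27.8% lower) and 31.0% in MHCIIhi against MHCIIlo cells (14.9% higher and 16.1% lower). The median log2 difference of the 9 genes was -2.11 between kidney and MHCIIhi cells, -2.24 between kidney and MHCIIlo cells and -1.15 between MHCIIhi and MHCIIlo cells, beside medians of -0.02, 0.04 and -0.24 over all genes. For 8, 9 and 8 of the 9 genes no array of 1 group lay within the range of the other, against 72.2%, 78.2% and 56.4% of all genes. With no minimum size, 9, 8 and 8 of the 9 passed the adjusted p, as did 63.4%, 72.4% and 50.1% of all genes. The comparisons share arrays, so their results are not independent of each other.

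**Figure D1:**
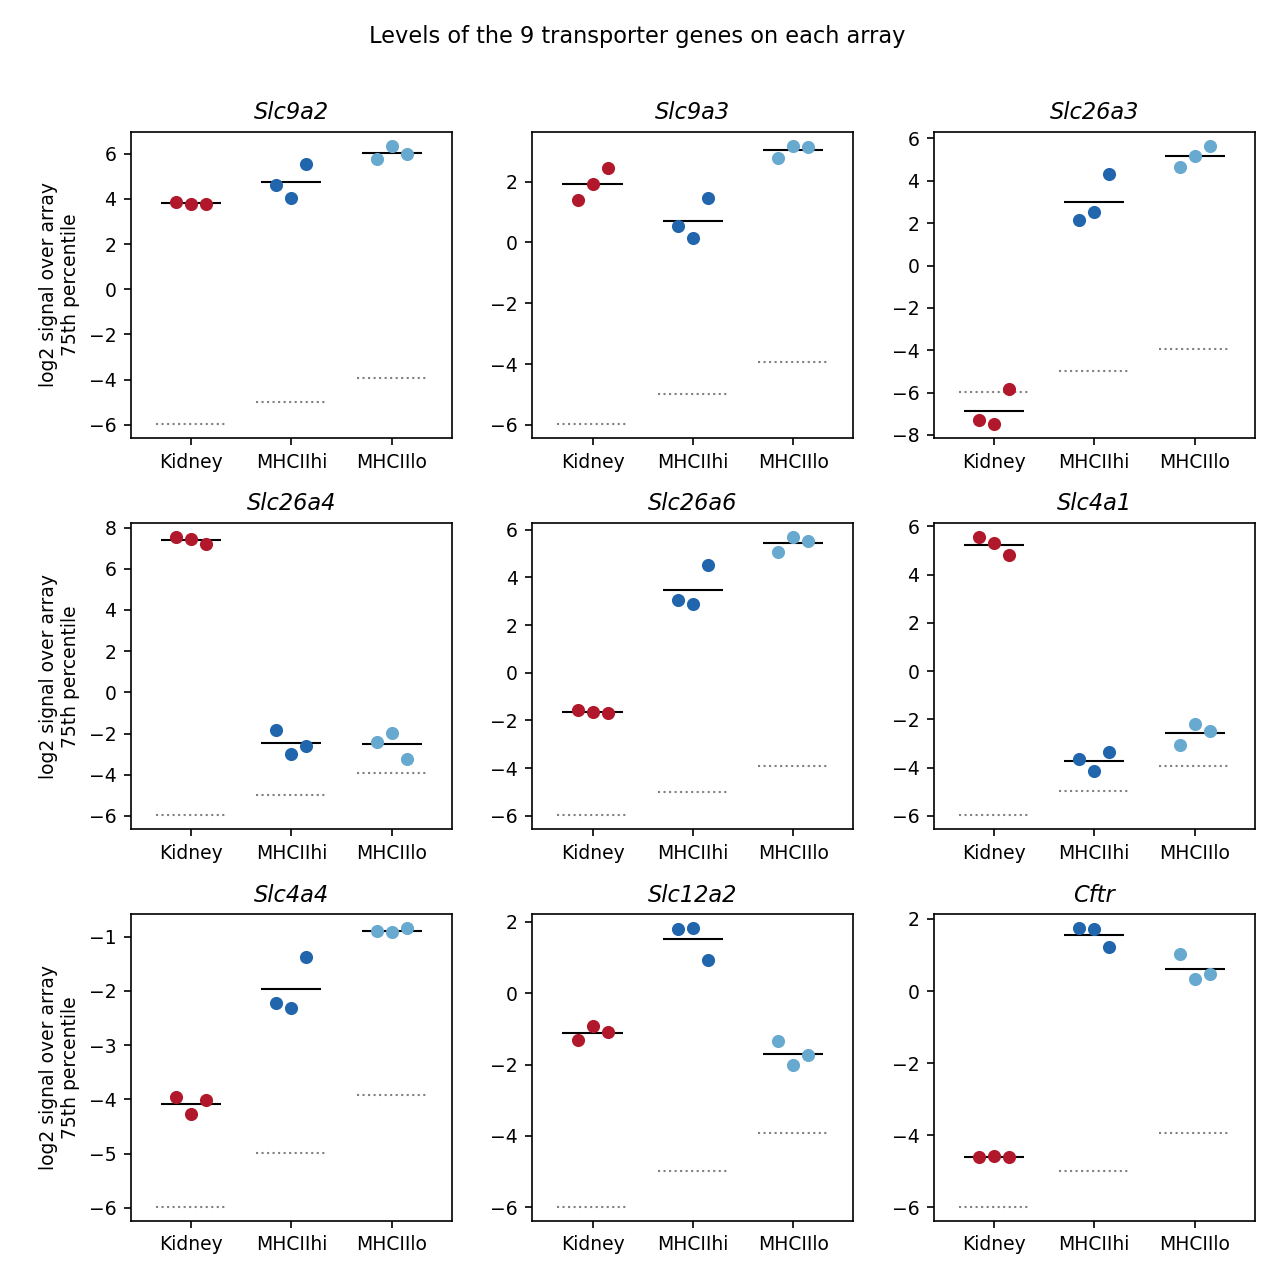
Level of each gene on each of the 9 arrays (points), as log2 of the processed signal over the array's 75th percentile, with the group mean (black line) and the mean over the group's arrays of the lowest signal that was well above background (dotted line); each panel has its own axis. Slc26a4 and Slc4a1 stand high in kidney alone, with levels of 4.79 to 7.54, while Slc26a3 and Slc26a6 are highest in MHCIIlo cells and Slc12a2 in MHCIIhi cells.

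The probes and promoters behind these values are shown first for the genes whose reading depends on them. The second probe of Slc9a2 spans 1985 bases of mm8 (chr1:40708134-40710118, plus strand) and that of Slc9a3 spans 607 bases (chr13:74629120-74629726, plus strand), so each 60-base probe crosses a splice junction. They are shown because the other probe of each gene reads a single stretch of the genome, and for Slc9a3 the probes disagree. All letters are in lower case because the files do not mark the junction.
Slc9a2 second probe: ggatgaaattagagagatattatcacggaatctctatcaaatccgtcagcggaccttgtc
Slc9a3 second probe: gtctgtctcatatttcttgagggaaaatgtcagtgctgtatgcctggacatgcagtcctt
The probes of Slc26a6 (chr9:108769628-108769687 and chr9:108769648-108769707 of mm8, plus strand) share 40 bases, set in capitals, so they do not measure separate parts of the transcript.
Slc26a6 first probe: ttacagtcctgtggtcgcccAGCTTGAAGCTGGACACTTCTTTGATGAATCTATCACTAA
Slc26a6 second probe: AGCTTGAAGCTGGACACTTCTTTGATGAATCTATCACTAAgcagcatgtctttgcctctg
The second Cftr probe (chr6:18217739-18217798 of mm8, plus strand) is shown because it was not well above background on any kidney array, which bounds the kidney level from above.
Cftr second probe: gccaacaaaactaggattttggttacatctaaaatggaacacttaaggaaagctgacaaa

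Among the sodium-proton exchangers, Slc9a2 (NHE2, a luminal exchanger of intestinal epithelium) had its highest level in MHCIIlo cells. Its level was 3.86, 3.77 and 3.78 on the kidney arrays, 4.61, 4.05 and 5.53 on the MHCIIhi arrays, and 5.79, 6.36 and 5.97 on the MHCIIlo arrays. After scaling, the groups did not overlap, and the order was kidney, MHCIIhi, MHCIIlo. Unscaled signals of all 3 groups overlapped. They were 8719, 9041 and 10576 in kidney, 7820, 6151 and 9878 in MHCIIhi cells, and 10226, 9925 and 6308 in MHCIIlo cells. Kidney cells were below MHCIIlo cells by a log2 difference of -2.24 ± 0.34 (SE, adjusted p = 0.000341), and MHCIIhi cells were below MHCIIlo cells by -1.31 ± 0.34 (adjusted p = 0.0144). Kidney against MHCIIhi cells gave -0.93 ± 0.34 (adjusted p = 0.0401), which is under the size asked for a call, although the splice-crossing probe gave -1.25 ± 0.32 (adjusted p = 0.00735). Without MHCIIhi 2 the gene's difference from kidney was called (-1.27), and the intestinal difference was not called without MHCIIhi 2 (-0.97) or without MHCIIlo 2 (-1.15, adjusted p = 0.0534). The intestinal difference was also not called with quantile normalization (-0.89) or after normexp background correction (-0.997).

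Slc9a3 (NHE3, the main luminal sodium-proton exchanger of enterocytes and of the proximal tubule) likewise had its highest level in MHCIIlo cells. It stood at 1.40, 1.91 and 2.45 in kidney, 0.53, 0.13 and 1.45 in MHCIIhi cells, and 2.78, 3.18 and 3.15 in MHCIIlo cells. The difference between MHCIIhi and MHCIIlo cells was -2.33 ± 0.37 (adjusted p = 0.00206), with no overlap, and the splice-crossing probe gave -2.82 ± 0.46 for the same contrast. The place of kidney depended on the probe. By the first probe kidney was above MHCIIhi cells by 1.21 ± 0.37 (adjusted p = 0.0183), with kidney 1 below MHCIIhi 3, whereas the splice-crossing probe gave -0.50 ± 0.46 (adjusted p = 0.372), which was not called. After scaling, kidney was below MHCIIlo cells by both probes, with -1.12 ± 0.37 (adjusted p = 0.0225) by the first and -3.32 ± 0.46 by the other. The first probe's unscaled signals ran the other way, at 1576, 2488 and 4194 in kidney against 1268, 1095 and 894 in MHCIIlo cells. Those of the splice-crossing probe kept the direction (64.5, 62.0 and 84.3 against 103, 143 and 167). The first probe's call against MHCIIhi cells was lost without kidney 3 (0.95, adjusted p = 0.0713), without MHCIIhi 1 (1.13, adjusted p = 0.0567) and without MHCIIhi 2 (0.93, adjusted p = 0.0626). Its call against MHCIIlo cells was lost without kidney 1 (-0.86), kidney 2 (-1.12, adjusted p = 0.0553), MHCIIlo 2 (-1.05) or MHCIIlo 3 (-1.06). That call was also lost with quantile normalization (-0.65) and after normexp background correction (-0.75). Scaling to the median of probes measured on all arrays (-0.92) lost it as well.

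Of 14 other sodium-proton exchangers and adaptors, 12 could be tested. In kidney against MHCIIhi cells 2 were higher and 4 lower, in kidney against MHCIIlo cells 2 higher and 5 lower, and in MHCIIhi against MHCIIlo cells none was higher and 4 were lower. Their median log2 differences were 0.01, -0.68 and -0.78 in these comparisons. Chp2, a calcineurin B homologous protein that binds sodium-proton exchangers, was lower in kidney by -6.24 ± 0.35 against MHCIIhi cells and by -8.00 ± 0.35 against MHCIIlo cells, and lower in MHCIIhi than in MHCIIlo cells by -1.76 ± 0.35. Prkg2, the membrane-bound cGMP-dependent kinase that acts on intestinal ion transport, was lower in the same order (-3.52 ± 0.40, -5.13 ± 0.40 and -1.60 ± 0.40). The scaffold Slc9a3r1 (NHERF1), which binds NHE3 and CFTR at the luminal membrane, differed by -1.98 ± 0.24, -3.56 ± 0.24 and -1.58 ± 0.24. Its relative Slc9a3r2 (NHERF2) was instead higher in kidney, by 4.01 ± 0.25 against MHCIIhi cells and by 3.39 ± 0.25 against MHCIIlo cells.

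The 3 SLC26 members are anion exchangers that trade chloride for bicarbonate or other anions, and they split by tissue. Slc26a3 (DRA, the luminal chloride-bicarbonate exchanger whose human form is mutated in congenital chloride diarrhoea) was an intestinal gene here. By its first probe it stood at -7.28, -7.50 and -5.84 in kidney, 2.15, 2.51 and 4.34 in MHCIIhi cells, and 4.67, 5.18 and 5.66 in MHCIIlo cells, and the kidney signal was well above background on 1 of 3 arrays. The probe at chr12:32059439-32059498 of mm8 was not well above background on any kidney array, so its fold is a bound, taken as the mean log2 level of the brighter group against the lowest signal well above background on each array of the dim group. By that bound Slc26a3 was at least 161-fold lower in kidney than in MHCIIhi cells (adjusted p = 3.09e-08 in the fit over every probe) and at least 570-fold lower than in MHCIIlo cells (adjusted p = 1.32e-08). The remaining probe, also dim on every kidney array, gave smaller bounds of 3.46-fold and 11.9-fold. It was well above background on 2 of 3 MHCIIhi arrays. MHCIIhi cells were below MHCIIlo cells by -2.18 ± 0.62 (adjusted p = 0.0201) by the first probe, with no overlap between arrays. The probe with the larger bounds gave -1.83 ± 0.28 (adjusted p = 0.00193) and the remaining probe -1.78 ± 0.51 (adjusted p = 0.0199), also without overlap. The first probe's call between the intestinal groups was lost without MHCIIhi 1 (-1.75), MHCIIhi 2 (-1.93, adjusted p = 0.0705), MHCIIlo 2 (-2.17, adjusted p = 0.0547) or MHCIIlo 3 (-1.93, adjusted p = 0.0673).

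Slc26a6 (PAT1, a luminal exchanger of chloride, bicarbonate and oxalate) followed the same order. Its level was -1.57, -1.64 and -1.68 in kidney, 3.03, 2.88 and 4.50 in MHCIIhi cells, and 5.07, 5.69 and 5.53 in MHCIIlo cells. The 3 groups were separate, and kidney was 34.4-fold lower than MHCIIhi cells (log2 difference -5.10 ± 0.39, adjusted p = 6.39e-06) and 134-fold lower than MHCIIlo cells (-7.06 ± 0.39, adjusted p = 7.83e-07). MHCIIhi cells were 3.89-fold lower than MHCIIlo cells (-1.96 ± 0.39, adjusted p = 0.00527). Unscaled signals of these intestinal groups overlapped, at 2615, 2741 and 4812 against 6193, 6240 and 4650.

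Slc26a4 (pendrin, the luminal chloride-bicarbonate exchanger of bicarbonate-secreting intercalated cells, also known from the inner ear and thyroid) ran the other way. It stood at 7.54, 7.44 and 7.18 in kidney, against -1.84, -3.02 and -2.59 in MHCIIhi cells and -2.39, -1.96 and -3.23 in MHCIIlo cells, where 2 of 3 arrays were well above background. Kidney was 936-fold above MHCIIhi cells (9.87 ± 0.37, adjusted p = 1.08e-07) and 965-fold above MHCIIlo cells (9.91 ± 0.37, adjusted p = 9.04e-08). The intestinal groups overlapped, and their difference of 0.04 had a 95% interval of -0.81 to 0.90 (adjusted p = 0.929). After normexp background correction it was -0.49, and without MHCIIlo 3 it was -0.31.

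**Figure D2:**
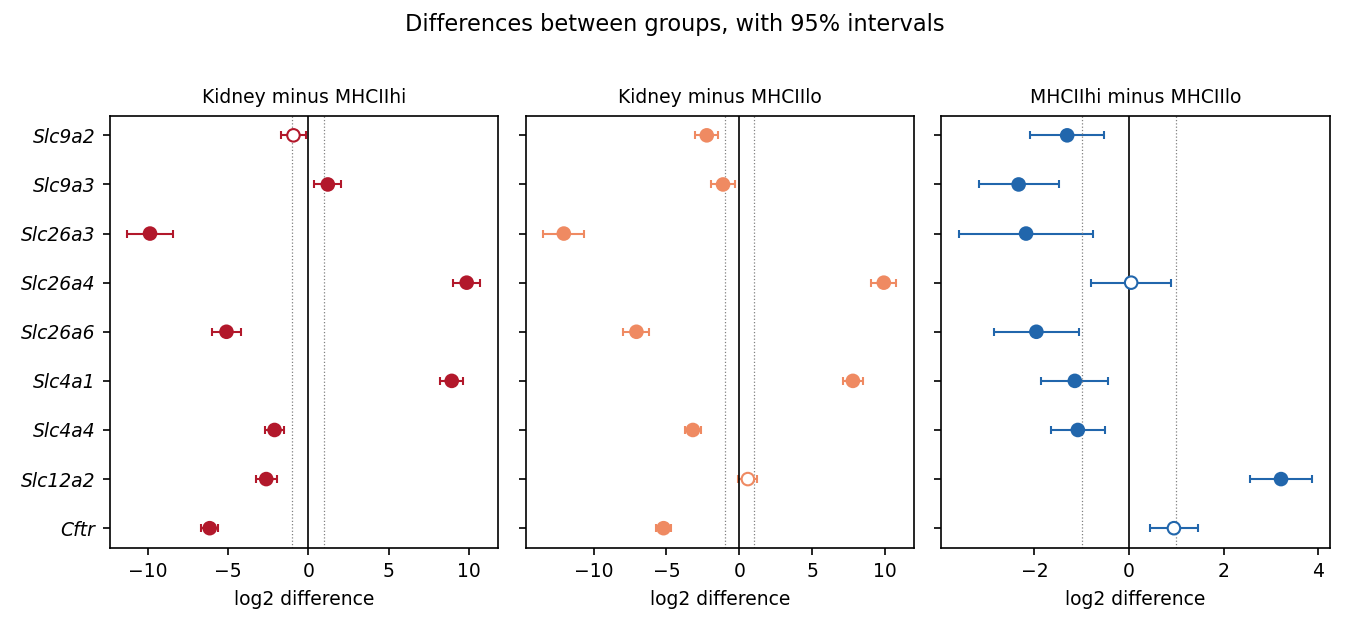
Log2 difference of each gene with its 95% interval from limma in kidney minus MHCIIhi, kidney minus MHCIIlo and MHCIIhi minus MHCIIlo cells (filled points, called; open points, not called; dotted lines at a difference of 1 in either direction). Slc26a4 lies at 9.87 in the first comparison and Slc26a3 at -9.87, a fitted value against a kidney signal well above background on 1 of 3 arrays, and Slc12a2 at 3.21 is the one called member to the right of 0 in the third.

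Slc26a3 and Slc26a4 are near neighbours on chromosome 12, with 1 protein-coding gene, Cbll1, between them in the RefSeq annotation of GRCm38.p6. Cbll1 (an E3 ubiquitin ligase) was not called in any comparison, with -0.78 ± 0.17 in kidney against MHCIIhi cells, -0.77 ± 0.17 against MHCIIlo cells and 0.01 ± 0.17 between the intestinal groups. The outer neighbours were called. Dld, beyond Slc26a3, was higher in kidney by 1.08 ± 0.18 against MHCIIhi cells and by 1.13 ± 0.18 against MHCIIlo cells. Bcap29, beyond Slc26a4, was higher in kidney by 1.18 ± 0.36 and 3.63 ± 0.36, and higher in MHCIIhi than in MHCIIlo cells by 2.45 ± 0.36. The 250 bases before the RefSeq start site of Slc26a3 (chr12:31437969-31438218 of GRCm38.p6, plus strand), Slc26a4 (chr12:31559985-31560234, minus strand) and Slc26a6 (chr9:108853793-108854042, plus strand) are shown because these related genes moved in opposite directions between the tissues. Capitals mark matches to 5 motifs searched on both strands, namely the HNF1 palindrome of 13 letters, an HNF4 motif spelled CAAAGTCCA, a CDX motif spelled TTTATTG, a forkhead motif spelled TGTTTAC and the TATA box spelled TATAAA, none of which contains another.
Slc26a3 promoter: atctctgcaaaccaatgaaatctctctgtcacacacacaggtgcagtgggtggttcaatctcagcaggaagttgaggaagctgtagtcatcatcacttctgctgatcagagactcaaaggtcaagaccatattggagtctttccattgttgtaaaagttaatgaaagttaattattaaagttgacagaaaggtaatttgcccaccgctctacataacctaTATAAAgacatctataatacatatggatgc
Slc26a4 promoter: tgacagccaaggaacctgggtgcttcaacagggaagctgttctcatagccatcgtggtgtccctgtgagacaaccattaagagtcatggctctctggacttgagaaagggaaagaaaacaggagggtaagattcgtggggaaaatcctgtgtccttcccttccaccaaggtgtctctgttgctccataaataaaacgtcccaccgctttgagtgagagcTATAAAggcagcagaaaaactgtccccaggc
Slc26a6 promoter: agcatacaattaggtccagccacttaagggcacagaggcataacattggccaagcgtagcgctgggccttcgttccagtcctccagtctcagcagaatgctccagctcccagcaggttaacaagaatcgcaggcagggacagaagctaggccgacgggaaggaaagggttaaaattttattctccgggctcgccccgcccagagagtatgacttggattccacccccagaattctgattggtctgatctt
The TATA motif began at position -30 in Slc26a3 and at -31 in Slc26a4, counted from the start site, and was not found in Slc26a6. Over the 300-base windows of RefSeq (250 bases before to 50 after the start), which covered 6 of the 9 genes with 7 promoters, it was the only motif matched in a member, and 13.6% of 32851 promoters held it, against 0.00913% for HNF1, 0.475% for HNF4, 4.6% for CDX and 3.65% for forkhead. G and C made up 39.3% of the Slc26a3 window, 50% of the Slc26a4 window and 56.0% of the Slc26a6 window, beside a median of 52.7%.

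Among 8 other SLC26 genes, 5 could be tested. In kidney against each intestinal group 2 were higher and 1 lower, and in MHCIIhi against MHCIIlo cells 2 were lower, with median differences of 1.04, 0.70 and -0.88. Slc26a2, a sulfate transporter, was lower in kidney by -3.70 ± 0.27 against MHCIIhi cells and by -5.34 ± 0.27 against MHCIIlo cells, and lower in MHCIIhi than in MHCIIlo cells by -1.64 ± 0.27.

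Slc4a1 (AE1 or band 3, the chloride-bicarbonate exchanger of red cells, made in a shorter form on the basolateral face of acid-secreting intercalated cells) was a kidney gene in these arrays. Its level was 5.56, 5.29 and 4.79 in kidney, against -3.66, -4.16 and -3.37 in MHCIIhi cells and -3.07, -2.18 and -2.49 in MHCIIlo cells. Kidney was 491-fold above MHCIIhi cells (8.94 ± 0.31, adjusted p = 6.84e-08) and 222-fold above MHCIIlo cells (7.79 ± 0.31, adjusted p = 1.18e-07). The single Slc4a1 probe (chr11:102165032-102165091 of mm8, minus strand) does not tell the red cell form from the kidney form as far as the files state.

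Red cell and intercalated cell markers were read beside it, and their part in the Slc4a1 difference was not tested. Of 14 erythroid markers, 12 were on the array and 6 could be tested, and 2 of these were higher in kidney against each intestinal group. Summed over the list, as signal relative to the array's 75th percentile, they came to 4.16 to 4.45 in kidney, 0.606 to 4.57 in MHCIIhi cells and 2.17 to 4.59 in MHCIIlo cells. The alpha-globin gene Hba-a1 averaged 1.08 in kidney, -0.09 in MHCIIhi cells and 0.56 in MHCIIlo cells, and its differences of kidney from them were not called (adjusted p = 0.187 and 0.532). It is named, outside the rule for list genes, as a defining red cell gene measured in all groups. The 2 called genes were Sptb, which encodes erythroid beta-spectrin, and Kel, the Kell blood group gene, neither well above background on any intestinal array. Sptb was at least 8.58-fold higher in kidney than in MHCIIhi cells (adjusted p = 0.00053) and at least 4.12-fold higher than in MHCIIlo cells (adjusted p = 0.000603), and Kel was at least 1.98-fold higher than in MHCIIhi cells (adjusted p = 1.76e-05). The intercalated cell list summed to 291 to 365 in kidney, 2.49 to 6.67 in MHCIIhi cells and at most 12.4 in MHCIIlo cells, and all 10 of its members were higher in kidney. Rhbg, an ammonia transporter, was higher by 4.90 ± 0.42 against MHCIIhi cells and by 2.96 ± 0.42 against MHCIIlo cells. Foxi1, the forkhead factor of intercalated cells, named here after its values were seen, was at least 60.5-fold and at least 29.0-fold higher in kidney.

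In MHCIIhi against MHCIIlo cells Slc4a1 differed by -1.15 ± 0.31 (adjusted p = 0.0164), yet its unscaled signals there were 25.3, 20.8 and 20.7 against 22.1, 26.6 and 17.9, which overlapped. The call was lost without MHCIIhi 2 (-0.93, adjusted p = 0.0611), without MHCIIlo 2 (-0.95, adjusted p = 0.0597) and after normexp background correction (-0.85).

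Slc4a4 (NBCe1, a sodium-bicarbonate cotransporter of the basolateral face in proximal tubule, pancreas and gut) had its lowest level in kidney. It stood at -3.95, -4.28 and -4.01 in kidney, -2.22, -2.32 and -1.38 in MHCIIhi cells, and -0.90, -0.92 and -0.84 in MHCIIlo cells, with no overlap between the groups. Kidney was 4.31-fold below MHCIIhi cells (-2.11 ± 0.25, adjusted p = 9.35e-05) and 9.13-fold below MHCIIlo cells (-3.19 ± 0.25, adjusted p = 5.87e-06). The other 2 probes gave -1.41 and -1.79 against MHCIIhi cells and -2.44 and -2.69 against MHCIIlo cells, all called. By the first probe, unscaled kidney signals (38.8, 34.2 and 47.6) stayed below every intestinal signal. Unscaled signals of the other 2 probes overlapped between kidney and both intestinal groups. By the probe that gave -1.41 they were 38.1 to 69.1 in kidney, 46.2 to 70.8 in MHCIIhi and 42.2 to 71.4 in MHCIIlo cells. MHCIIhi cells were below MHCIIlo cells by -1.08 ± 0.25 (adjusted p = 0.0092), though the unscaled signals overlapped (68.8, 74.4 and 81.9 against 98.8, 63.8 and 56.1). For that contrast the other 2 probes gave -1.03, which was called, and -0.91, which was not. Proximal tubule markers, 6 of 7 of which were higher and 1 lower in kidney than in MHCIIhi cells, summed to 107 to 177 in kidney, 37.2 to 52.6 in MHCIIhi cells and 49.2 to 73.7 in MHCIIlo cells. The intestinal call was lost without MHCIIhi 1 (-0.96), without MHCIIhi 2 (-0.91) or after normexp background correction (-0.84), where the difference no longer reached the size asked.

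Of 8 other SLC4 genes, 6 could be tested, and 4 were higher and 1 lower in kidney against each intestinal group, with median differences of 3.80 and 3.95. Between MHCIIhi and MHCIIlo cells limma called 0 of them, 2 had an unadjusted p below 0.05, and their median was -0.38. Slc4a9 (AE4), an exchanger of intercalated cells that also stood in that marker list, was higher in kidney by 5.09 ± 0.19 and 4.41 ± 0.19, and Slc4a8, a sodium-dependent chloride-bicarbonate exchanger, by 3.72 ± 0.31 and 3.64 ± 0.31. Slc4a7 (NBCn1), another sodium-bicarbonate cotransporter, was lower in kidney by -2.40 ± 0.35 and -2.38 ± 0.35.

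Of the genes known from chloride secretion, Slc12a2 was called between the intestinal groups and Cftr was not. Slc12a2 (NKCC1), the basolateral sodium-potassium-chloride cotransporter that loads secreting cells with chloride, was the 1 member called higher in MHCIIhi than in MHCIIlo cells. Its level was -1.33, -0.93 and -1.09 in kidney, 1.81, 1.82 and 0.91 in MHCIIhi cells, and -1.33, -2.02 and -1.74 in MHCIIlo cells. Every MHCIIhi array was above every other array. MHCIIhi cells were 9.26-fold above MHCIIlo cells (3.21 ± 0.29, adjusted p = 0.000246), and kidney was 6.17-fold below MHCIIhi cells (-2.63 ± 0.29, adjusted p = 5.6e-05). Kidney and MHCIIlo cells, the neighbours in this order, differed by 0.59 ± 0.29 with a 95% interval of -0.07 to 1.24 (adjusted p = 0.0963), and by -0.08 after normexp background correction. Unscaled signals of kidney (239, 349 and 362) all lay above those of MHCIIlo cells (73.3, 29.8 and 30.0). Those of MHCIIhi cells were 1118, 1308 and 401.

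Cftr, the cAMP-regulated chloride and bicarbonate channel of the luminal face, was an intestinal gene in these arrays. By the probe printed 10 times on each array it stood at -4.61, -4.57 and -4.60 in kidney, 1.74, 1.71 and 1.22 in MHCIIhi cells, and 1.02, 0.32 and 0.48 in MHCIIlo cells. The SD between its spots within an array was 0.05 to 0.42. That SD includes the 6 spots flagged as outliers over all arrays, which the levels leave out. Kidney was 71.0-fold below MHCIIhi cells (-6.15 ± 0.23, adjusted p = 9.52e-08) and 36.8-fold below MHCIIlo cells (-5.20 ± 0.23, adjusted p = 1.98e-07), and the second probe, dim on every kidney array, put kidney at least 30.6-fold and at least 18.1-fold lower. MHCIIhi cells exceeded MHCIIlo cells by 0.95 ± 0.23 (adjusted p = 0.0104) on arrays that did not overlap, which is under the size asked for a call, and the second probe gave 0.76 ± 0.21. It was 0.61 (adjusted p = 0.205) with slide as a fixed block. Without MHCIIhi 3 the difference was 1.11 and without MHCIIlo 1 it was 1.15, both called.

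**Figure D3:**
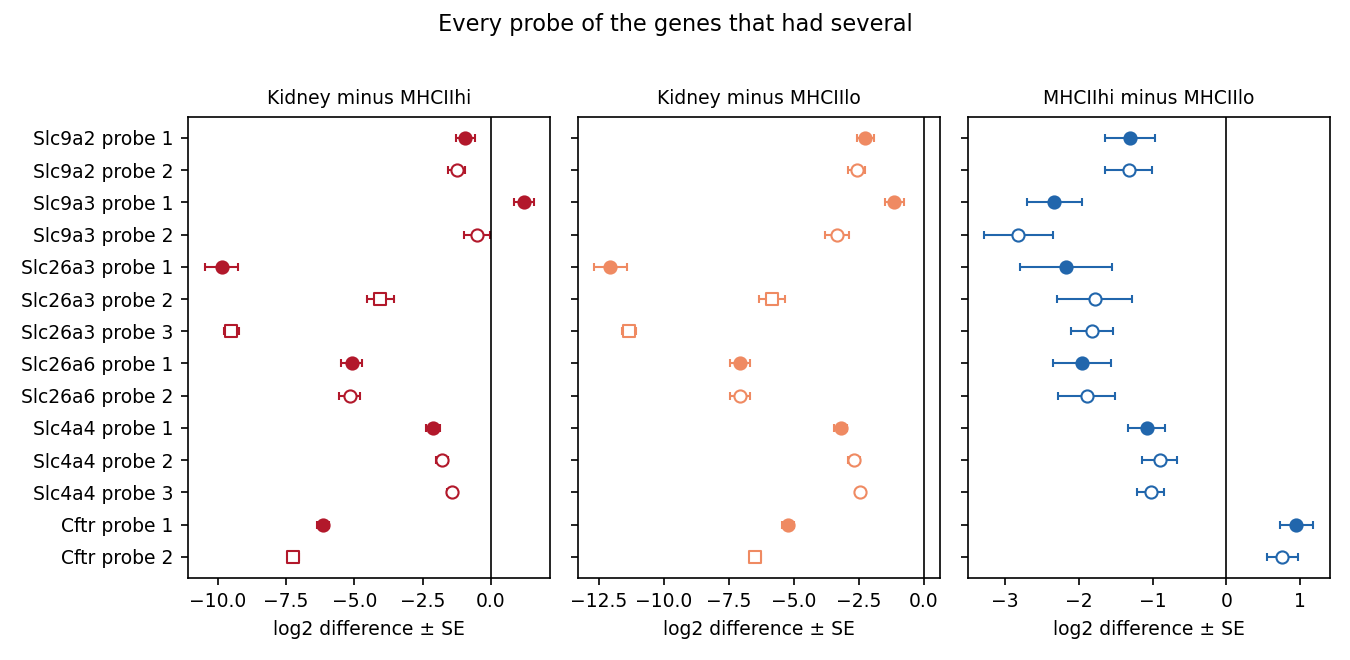
Log2 difference (± SE) by each probe of the 6 genes with several probes; filled points are the probe that stands for the gene, and squares mark a probe that was not well above background on any array of 1 group, where the fitted difference is not a bound. Probes of a gene lie on the same side of 0 except for Slc9a3 in kidney minus MHCIIhi cells, where they lie at 1.21 and -0.50.

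Channels showed no single direction between the intestinal groups. Of 21 chloride and potassium channel genes, 20 could be tested: 9 were higher and 5 lower in kidney against MHCIIhi cells, 9 higher and 6 lower against MHCIIlo cells, and 4 higher and 5 lower in MHCIIhi against MHCIIlo cells. Their median differences were 0.67, 0.51 and -0.59. Clca3b was higher in MHCIIhi than in MHCIIlo cells by 3.90 ± 0.71 (adjusted p = 0.00352). Kcne3, the subunit that keeps intestinal KCNQ1 channels open, was higher in MHCIIhi than in MHCIIlo cells by 3.45 ± 0.32 (adjusted p = 0.000265), and the calcium-activated potassium channel Kcnn4 by 3.55 ± 0.36 (adjusted p = 0.000346). Kcnq1 itself, named after its values were seen, was higher by 1.42 ± 0.21, while the chloride channel Clcn2 was lower by -1.78 ± 0.31. Of the 5 lower genes, Clcn2 and Ano6 were measured in both intestinal groups, and the others, Kcnj1 and Kcnj10 among them, were not well above background on any intestinal array and so carry no measured difference. Ano6, Kcnj1 and Kcnj10 were named after their values were seen. Clca1, a secreted protein of goblet cells that also stood in that marker list, was lower in kidney by -12.76 ± 0.42 and -11.78 ± 0.42, and was not called between the intestinal groups (0.98 ± 0.42, adjusted p = 0.0803). Kcnj16, an inwardly rectifying potassium channel subunit, was higher in kidney than in MHCIIhi cells by 8.69 ± 0.44. In kidney Kcne3 was lower by -7.38 ± 0.32 and -3.92 ± 0.32, whereas Bsnd (barttin, the subunit of renal chloride channels) was higher by 5.08 ± 0.23 and 4.53 ± 0.23.

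Of 14 other SLC12 cotransporters and WNK-pathway kinases, 13 could be tested, with 7 higher and 3 lower in kidney against MHCIIhi cells, 7 higher and 4 lower against MHCIIlo cells, and 3 higher and 1 lower in MHCIIhi against MHCIIlo cells. Their median differences were 1.57, 1.80 and -0.22. Slc12a3, the thiazide-sensitive cotransporter of the distal convoluted tubule, named after its values were seen, was at least 524-fold and at least 253-fold higher in kidney. The regulator Wnk4 was higher in kidney by 5.07 ± 0.26 and 6.73 ± 0.26, and higher in MHCIIhi than in MHCIIlo cells by 1.66 ± 0.26. Stk39 (SPAK), the kinase that phosphorylates NKCC1, was higher in kidney than in MHCIIlo cells by 3.10 ± 0.29 and higher in MHCIIhi than in MHCIIlo cells by 1.54 ± 0.29. Slc12a8 was lower in kidney by -5.62 ± 0.44 and -3.15 ± 0.44, and higher in MHCIIhi than in MHCIIlo cells by 2.47 ± 0.44.

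**Figure D4:**
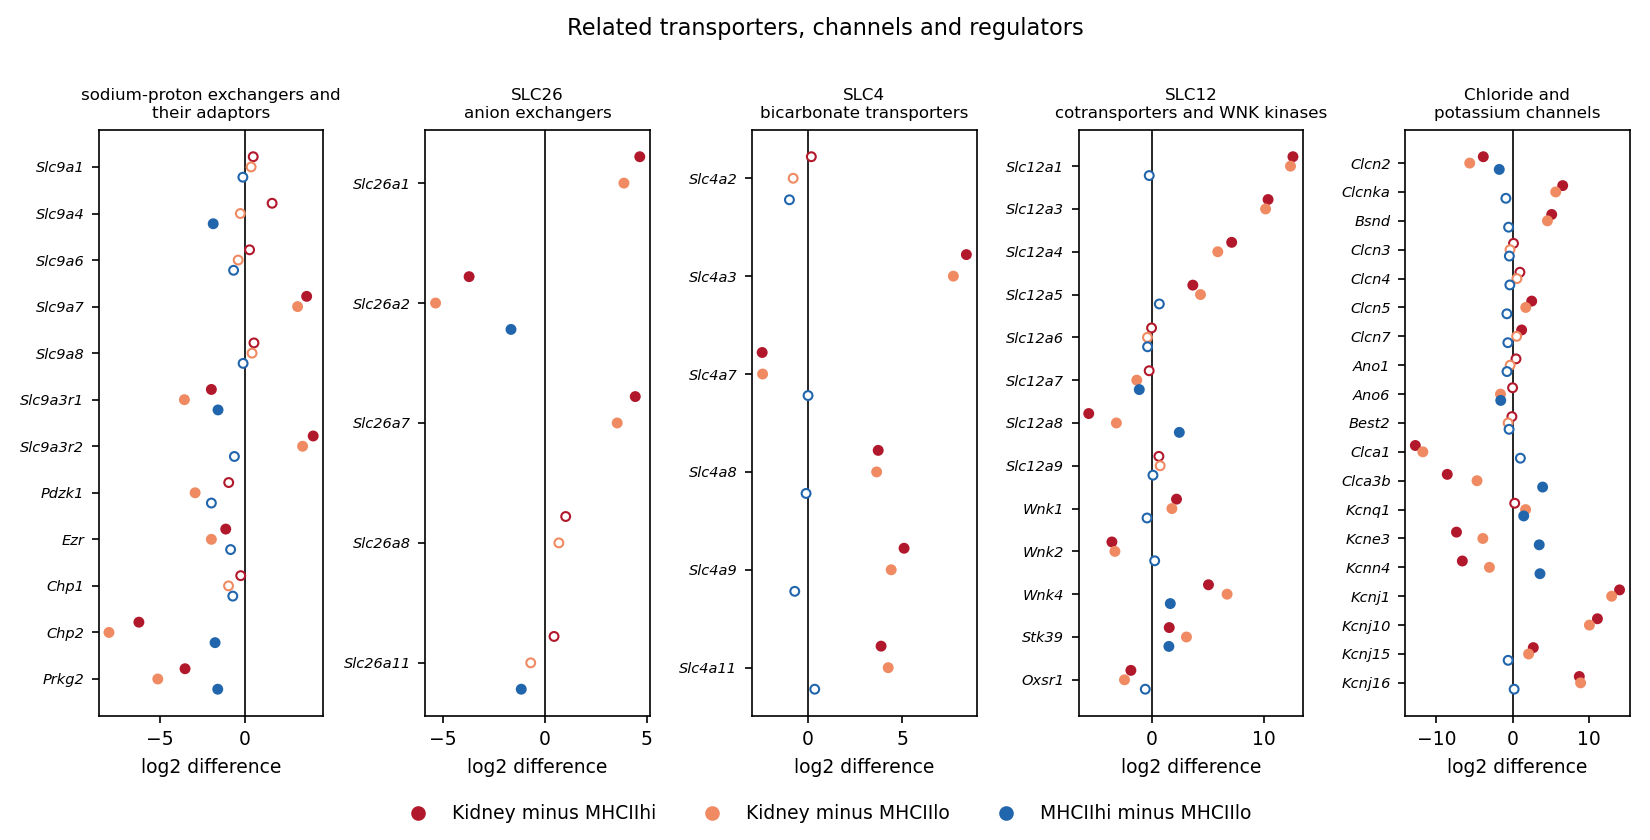
Log2 difference of the tested genes of 5 related lists, apart from 1 channel gene, in the 3 comparisons (filled, called; open, not called); a difference is left out where neither group had an array well above background. In the channel list Kcne3 and Kcnn4 lie right of 0 in MHCIIhi minus MHCIIlo cells, at 3.45 and 3.55, and left of 0 in both kidney comparisons.

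Markers of several intestinal cell types moved with the differences between the intestinal groups, and their part in them was not tested. Of 10 crypt and dividing cell markers, 8 were higher and none lower in MHCIIhi cells, and the list summed to 38.9 to 77.1 in MHCIIhi cells against 3.34 to 6.78 in MHCIIlo cells. All 4 Paneth markers and 6 of 7 goblet markers were higher as well. Of 15 enterocyte markers, 10 were lower in MHCIIhi cells and none higher, with sums of 1102 to 2517 against 3642 to 5354. Plasma cell (3 of 4), T cell (5 of 6) and fibroblast markers (4 of 4 tested) were also lower in MHCIIhi cells. None of the 4 tested tuft markers was called between the intestinal groups, and of 5 tested colonocyte and distal gut markers 1 was lower in MHCIIhi cells. In kidney, 5 of 5 endothelial markers were higher than in either intestinal group, with sums of 30.1 to 73.1 against 0.0489 to 0.281 in MHCIIhi cells and 0.131 to 0.245 in MHCIIlo cells.

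On the slide that holds both intestinal groups, MHCIIhi 3 lay closer to the MHCIIlo mean than MHCIIhi 1 and 2 did for each of the 9 genes. With slide as a fixed block, Slc12a2 kept its call (2.61, adjusted p = 0.00672), and Slc9a3 was called at an adjusted p of 0.0492 (-1.59). The differences of Slc9a2 (-0.51), Slc26a3 (-0.84), Slc26a6 (-0.93), Slc4a1 (-0.79), Slc4a4 (-0.49) and Cftr (0.61) were not called there. With slide as a random block over all arrays, Slc9a3 lost its calls in kidney against MHCIIhi cells (1.16, adjusted p = 0.0548) and against MHCIIlo cells (-0.96, adjusted p = 0.104), and Slc26a3 (-1.78, adjusted p = 0.0597) and Slc4a4 (-0.91) lost theirs between the intestinal groups. The median gene differed by -0.24 between the intestinal groups, and after that shift was taken off, the differences were 3.45 for Slc12a2, 1.19 for Cftr, -2.10 for Slc9a3, -1.94 for Slc26a3, -1.72 for Slc26a6, -1.07 for Slc9a2, -0.91 for Slc4a1 and -0.85 for Slc4a4.

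As a description, the genes whose profile over the 9 arrays lay closest to each member were found among 14681 tested genes with RefSeq names, by the root mean square deviation of log2 levels after each gene was centred on its own mean. Slc26a3 was nearest to Alpi (intestinal alkaline phosphatase, 0.56) and Myo1a (brush border myosin, 0.59), beside a median of 5.33 over all genes. Slc26a6 was nearest to Cyp4f18 (0.15) and Sec16b (0.21). Slc26a4 was nearest to Gcgr (the glucagon receptor, 0.56) and Rcan2 (0.71), and Slc4a1 to Emb (0.26) and Dmrt2 (0.33). Slc12a2 was nearest to Ncapd2, a condensin subunit (0.23), and Rrm1, a subunit of ribonucleotide reductase (0.25), both of which serve dividing cells. Cftr was nearest to Prss16 (0.25), and Slc9a3 to Slc25a45 (0.28) and Dennd3 (0.31). For Slc9a2 (Kcnj4 and Mertk) and Slc4a4 (Metrnl and Atp6v0a2) such likeness was common, with 1339 and 729 genes within a deviation of 0.5.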

How the data were processed

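Cy3-labelled RNA was scanned and quantified by Feature Extraction (Agilent, version 10.5.1.1), and probe positions are on mm8, per the file headers. The processed signal deposited for each spot is a linear intensity with background subtracted and no normalization between arrays, according to those headers. The value table that the authors deposited, also an intensity, was that signal divided by the median of the array's non-control spots (within 0.1% in all rows), so every column has a median of 1.

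Control spots and outliers were dropped, replicate spots were averaged as log2 values of the deposited signal, and the 75th percentile of the array was subtracted. The probe with the highest mean stood for its gene. RefSeq accessions (GRCm38.p6) named 24375 probes, and 16799 kept the name in the file. With limma 3.58.1 (R 4.3.3, with data.table at version 1.17.8) a model with group as its factor was fitted to the 9 arrays, with p adjusted over 19993 genes, and single probes were adjusted over 29583 probes. The code was first tested on simulated data. Alternatives covered scaling, background correction, filters, slide and replicate blocks and arrays left out. Plots were drawn in Python 3.11.15 (pandas 2.3.3, matplotlib 3.10.9).

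The members, lists, markers and motifs were chosen with earlier results of these data known. Named list genes come from the 4 called genes with the largest difference in a comparison, among those measured on at least 2 of 3 arrays of both groups, and not all of these are printed. Exceptions are stated. Replicates were pools of mice, per the labels. Promoters come from RefSeq (GRCm38.p6). Some genes are not reported here.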

Additional observations from a re-analysis of the deposited data

How the results depend on the processing

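Over 24 planned settings and 1 chosen after seeing the data, 600 of 651 single-gene results kept their direction and call, and 51 did not. Kidney against MHCIIlo cells kept 1 higher member when genes had to be well above background on all arrays. Slc26a4 and Slc26a3 did not pass that filter and so were not tested under it in any comparison. Between MHCIIhi and MHCIIlo cells, lower members numbered 3 after normexp background correction (offset 50), 1 with slide as a fixed block, 3 at an adjusted p below 0.01, and 2 to 6 when replicates were left out in turn (2 without MHCIIhi 2, 3 without MHCIIlo 2). Higher members numbered 2 with no minimum size, 1 to 2 when replicates were left out in turn (2 without MHCIIhi 3 and 2 without MHCIIlo 1), and 2 without both MHCIIhi 3 and MHCIIlo 1, the setting added after seeing the data. Directions turned for Slc12a2 in kidney against MHCIIlo cells after normexp (-0.077, adjusted p = 0.772), and for Slc26a4 in MHCIIhi against MHCIIlo cells after normexp (-0.49), with slide as a fixed block (-0.066), without MHCIIhi 1 (-0.28) and without MHCIIlo 3 (-0.31, within a range of -0.31 to 0.33 as replicates were left out in turn), and the causes were not tested. Slc9a3 in kidney against MHCIIhi cells was 0.36 (adjusted p = 0.447) as the mean of its probes, within a range of adjusted p of 0.00281 to 0.447 over its settings. Normexp moved the median of all genes by -0.33, -0.64 and -0.26 in the 3 comparisons.

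Genes called over the whole array numbered 5444 in kidney against MHCIIhi cells, 7019 in kidney against MHCIIlo cells and 4024 in MHCIIhi against MHCIIlo cells when all arrays had to be well above background, against 9681, 11516 and 6197. With no filter on dim probes 17741 were called in kidney against MHCIIlo cells. Between the intestinal groups 2961 were called after normexp, 1683 with slide as a fixed block, 4117 at an adjusted p below 0.01, 10014 with no minimum size and 9377 without MHCIIhi 3 and MHCIIlo 1.

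With the replicate block, which matches arrays by number, 9639, 11490 and 6144 genes were called, and the member counts stayed at 3 higher and 5 lower, 2 and 6, and 1 and 6. The numbers did not pair the arrays: deviations of same-numbered MHCIIhi and MHCIIlo arrays correlated at 0.19, -0.35 and 0.28. A fixed slide block for kidney could not be fitted, since its slide held kidney arrays alone. Signals not well above background limit Slc26a3 and Cftr in kidney to bounds for some probes.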
